A study of Mus musculus with 6 samples.

Results

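The primitive endoderm is the epithelium that the inner cell mass sets aside beside the epiblast, and it goes on to form the visceral and parietal endoderm of the yolk sac. GATA6 acts early in this choice, downstream of FGF signalling through MEK and ERK, and is followed by PDGFRA, SOX17, GATA4 and SOX7, while NANOG holds cells in the epiblast. Cultures of mouse embryonic stem cells (ESCs), which represent the epiblast, can leak into this fate, and the leak is kept low when MEK is inhibited.

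Here 7 genes of this fate were followed in RNA-seq libraries of WT and *Patz1* KO ESCs. They were the transcription factor genes *Gata4*, *Gata6*, *Sox17*, *Sox7* and *Hnf4a*, the receptor gene *Pdgfra*, and *Dab2*, which codes for an endocytic adaptor. The genes were chosen by name, as known factors and markers of the fate and with earlier results of these data known, and all 7 were found among the 23420 gene symbols of the deposited counts. All cells were of the mouse line E14 and grew with LIF and 2i, the inhibitors of MEK1/2 and GSK3. The 3 WT libraries were wild type at *Patz1*, which codes for a zinc finger protein studied at chromatin boundaries. The 3 KO libraries were *Patz1* -/-, made with CRISPR/Cas9. The study made several KO clones, and the labels do not say which or how many were sequenced, so a trait of a clone and an effect of the lost gene cannot be told apart. The study calls the libraries of a genotype biological replicates, while the labels do not say whether they came from separate cultures or clones, so p-values measure only the spread between these libraries.

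Of the 7 genes, 2 passed the test, and they moved in opposite directions. *Hnf4a* fell in KO to 32.1% of the WT mean, and *Dab2* rose 2.42-fold. For *Gata4*, *Gata6*, *Sox17*, *Sox7* and *Pdgfra*, the libraries of the genotypes overlapped, and no difference was detectable at this depth. The share of genes passing in the whole transcriptome was 7.49% (adjusted p under 0.05, DESeq2), with 2.7% higher and 4.78% lower in KO. For 2 of the 7 genes the KO libraries lay wholly above or wholly below the WT libraries, as was so for 25.6% of all genes tested. The median log2 fold change (KO over WT) of the 7 genes was -0.17, against 0.01 over all genes tested. With so few members, neither count is read as a result about the group.

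The promoters of the genes that moved are shown because *Hnf4a* and *Dab2* each have more than 1 start site, and a count per gene does not say which start gave the RNA. Each sequence holds the 250 bases before a RefSeq start on GRCm38.p6, on the plus strand. Of the 7 genes, 3 had an entry in the promoter table, *Hnf4a*, *Dab2* and *Pdgfra*, and *Gata4*, *Gata6*, *Sox17* and *Sox7* did not. Capitals mark matches on either strand to 3 motifs. AGATAA is a form of the site that GATA factors bind. The core letters of a SOX site are ACAAT. The run GGGAGGG resembles the site of MAZ, whose zinc fingers are similar to those of PATZ1. The 4 sequences are, in order, the upstream *Hnf4a* start (chr2:163506607-163506856), the downstream *Hnf4a* start (chr2:163546905-163547154), the upstream *Dab2* start (chr15:6299539-6299788) and the downstream *Dab2* start (chr15:6386498-6386747).
*Hnf4a* upstream start: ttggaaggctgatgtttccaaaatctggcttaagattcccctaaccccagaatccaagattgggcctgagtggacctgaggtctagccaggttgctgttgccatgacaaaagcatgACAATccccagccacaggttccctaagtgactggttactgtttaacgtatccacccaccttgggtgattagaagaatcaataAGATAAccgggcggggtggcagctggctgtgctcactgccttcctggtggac
*Hnf4a* downstream start: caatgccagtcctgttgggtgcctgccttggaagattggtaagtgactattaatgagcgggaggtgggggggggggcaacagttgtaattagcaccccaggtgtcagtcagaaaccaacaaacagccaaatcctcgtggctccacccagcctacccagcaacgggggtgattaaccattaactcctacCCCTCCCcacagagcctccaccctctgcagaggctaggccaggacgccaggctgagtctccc
*Dab2* upstream start: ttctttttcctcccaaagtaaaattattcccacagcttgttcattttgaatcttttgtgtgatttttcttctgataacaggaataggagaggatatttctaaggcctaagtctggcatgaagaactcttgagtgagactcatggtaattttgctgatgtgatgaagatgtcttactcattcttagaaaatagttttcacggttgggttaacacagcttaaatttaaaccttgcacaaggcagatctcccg
*Dab2* downstream start: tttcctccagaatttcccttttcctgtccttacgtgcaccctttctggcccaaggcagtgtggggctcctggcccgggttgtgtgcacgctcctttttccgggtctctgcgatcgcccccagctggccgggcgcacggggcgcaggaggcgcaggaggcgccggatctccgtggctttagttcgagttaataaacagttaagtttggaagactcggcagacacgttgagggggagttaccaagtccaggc

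Upstream of the first *Hnf4a* start, AGATAA began 52 bases and ACAAT 134 bases before the start, both on the plus strand. These distances hold for the RefSeq start alone. The gene position given below begins at chr2:163506808, inside this window, and the AGATAA match spans that base. Upstream of the second, GGGAGGG was read on the minus strand, and its left end on the plus strand lay 62 bases before the start. Neither *Dab2* sequence held any of the 3 motifs, nor did the *Pdgfra* window, which is not printed. This says only that these letters are not in these windows. Over 32851 mouse promoter windows of the same length, 9.99% held AGATAA, 27.7% ACAAT and 19.7% GGGAGGG on either strand. These matches describe the sequences and are not evidence of binding.

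The libraries set the limits of what could be seen for genes this low. Total counts ran from 37573923 to 47721070 in replicates 1 and 2, but only 11040756 (WT) and 11420268 (KO) were present in replicate 3. The share of counts on the ribosomal precursor *Rn45s* was 14.4% and 12.5% in these shallow libraries, and between 1.79% and 3.03% in the others. Levels are given as normalized counts, in which each library is scaled by its size factor. A floor of 3 counts stood for 1.69 to 2.12 normalized counts in replicates 1 and 2, and for 7.93 and 8.21 in replicate 3, a limit for counting error only. The targeted gene, *Patz1*, stood at 1838, 1983 and 1843 in the WT libraries and at 853, 862 and 862 in the KO libraries, on the same scale. Each KO library held less than any WT library, and a count per gene does not separate edited from intact transcripts. By western blot, the study reports loss of the PATZ1 protein in its KO lines.

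*Gata6*, the gene at the head of this fate, was at the edge of detection in both genotypes. Its raw counts were 14, 9 and 1 in the WT libraries, in replicate order, and 9, 11 and 2 in the KO libraries. Both replicate 3 libraries thus fell under the floor. Scaled, these were 8.01, 6.36 and 2.74 normalized counts for WT and 5.08, 6.52 and 5.29 for KO, and every KO value lay inside the WT range. DESeq2 gave a log2 fold change, KO over WT here and below, of -0.12 with an SE of 0.87 and an adjusted p of 0.972. Its 95% interval, from -1.82 to 1.58, leaves room for a change of more than 2-fold in either direction. An opposite-strand transcript, *1010001N08Rik*, shares 93 exon bases with *Gata6*.

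*Gata4*, which acts after *Gata6*, was low but measured above the floor in all 6 libraries. Its normalized counts were 30.3, 26.1 and 27.4 in WT and 23.7, 25.5 and 26.4 in KO. The genotypes overlapped and lay close together, with means of 27.9 ± 2.15 and 25.2 ± 1.39 (SD, n = 3 each). The estimate was -0.17 on the log2 scale (SE 0.41, DESeq2 adjusted p 0.917), and the 95% interval of -0.96 to 0.63 spans 0. Within pairs the KO over WT ratios were 0.782, 0.976 and 0.965.

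*Sox17*, whose product drives endoderm genes, had 12, 14 and 5 raw counts in WT and 8, 13 and 1 in KO. Normalized counts were 6.86, 9.89 and 13.7 in WT and 4.51, 7.71 and 2.64 in KO. The KO mean was 48.8% of the WT mean, yet KO replicate 2 lay above WT replicate 1, and KO replicate 3 rested on a single read. Within pairs KO held 0.658, 0.780 and 0.193 of the WT level. On the log2 scale the difference was -0.83 with an SE of 0.79 and an interval from -2.38 to 0.71 (DESeq2 adjusted p 0.708). An opposite-strand transcript, *Gm37587*, shares 804 exon bases with *Sox17*, and whether the counting used strand is not stated.

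*Sox7*, the close relative of *Sox17*, showed the spread between replicates more plainly than any difference between genotypes. It stood at 34.9, 41.7 and 71.2 normalized counts in WT and at 40.1, 39.1 and 66.1 in KO. Replicate 3 was the highest library in both genotypes, and the values of same-numbered libraries lay near each other, with KO over WT ratios of 1.15, 0.940 and 0.928. DESeq2 placed the log2 fold change at -0.0066 with an SE of 0.36, an interval from -0.72 to 0.71 and an adjusted p of 0.997. Its sign turned in several alternative fits, so it gives no direction.

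*Hnf4a* codes for a nuclear receptor that acts in the visceral endoderm and later in liver and gut, and lies on the plus strand of mm10 at chr2:163506808-163572910. It was the member with the most counts in WT, at 137, 96.7 and 140 normalized counts in replicate order (raw counts of 240, 137 and 51). KO libraries held 41.2, 44.5 and 34.4 (raw counts of 73, 75 and 13). The highest KO library held 46.0% of the level of the lowest WT library. Means were 125 ± 24.1 and 40.0 ± 5.17 (SD, n = 3 each). DESeq2 gave a log2 fold change of -1.58 with an SE of 0.27, a 95% interval from -2.12 to -1.05 and an adjusted p of 7.42e-07. Within pairs of equal replicate number KO held 0.300, 0.460 and 0.246 of the WT level, lower in 3 of 3 pairs. *Hnf4a* passed in each of 13 alternative fits, where the estimate lay between -1.75 and -1.45 and the adjusted p between 3.57e-07 and 0.00484. Among these were edgeR, where 6.41% of tested genes passed, and the replicate number as a block, where 14.6% did. *Hnf4a* and *Dab2* both passed without the shallow replicate 3 libraries as well.

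*Dab2* codes for an adaptor that binds cargo receptors of the megalin type and is needed for the order of the endoderm layer. The gene lies on the plus strand at chr15:6299788-6440712, and an opposite-strand pseudogene, *Gm18888*, shares 211 exon bases with it. Its normalized counts were 25.7, 28.2 and 43.8 in WT and 70.0, 65.8 and 100.4 in KO (raw counts of 45, 40 and 16, and of 124, 111 and 38). The lowest KO library (65.8) stood above the highest WT library (43.8), and in each genotype replicate 3 was again the highest. Means were 32.6 ± 9.79 and 78.7 ± 18.9 (SD, n = 3 each), and the log2 fold change of 1.33 had an SE of 0.33, an interval from 0.68 to 1.97 and an adjusted p of 0.00191 (DESeq2). KO over WT ratios within pairs were 2.72, 2.33 and 2.29. The call held in 11 of 13 alternatives and was lost without WT replicate 1 (log2 fold change 1.17, adjusted p 0.0770) and without WT replicate 2 (1.25, adjusted p 0.0531).

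*Pdgfra*, the receptor for PDGF that marks primitive endoderm in the blastocyst, stood at 26.9, 22.6 and 30.1 normalized counts in WT and at 16.4, 23.1 and 13.2 in KO. KO replicate 2 lay above WT replicate 2, and the other KO libraries lay below every WT library. The difference of -0.51 (log2, SE 0.46) had an interval from -1.41 to 0.40 and did not pass (DESeq2 adjusted p 0.691). The opposite-strand transcripts *Gm42802* and *Gm42803* share 456 and 166 exon bases with it.

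**Figure D1:**
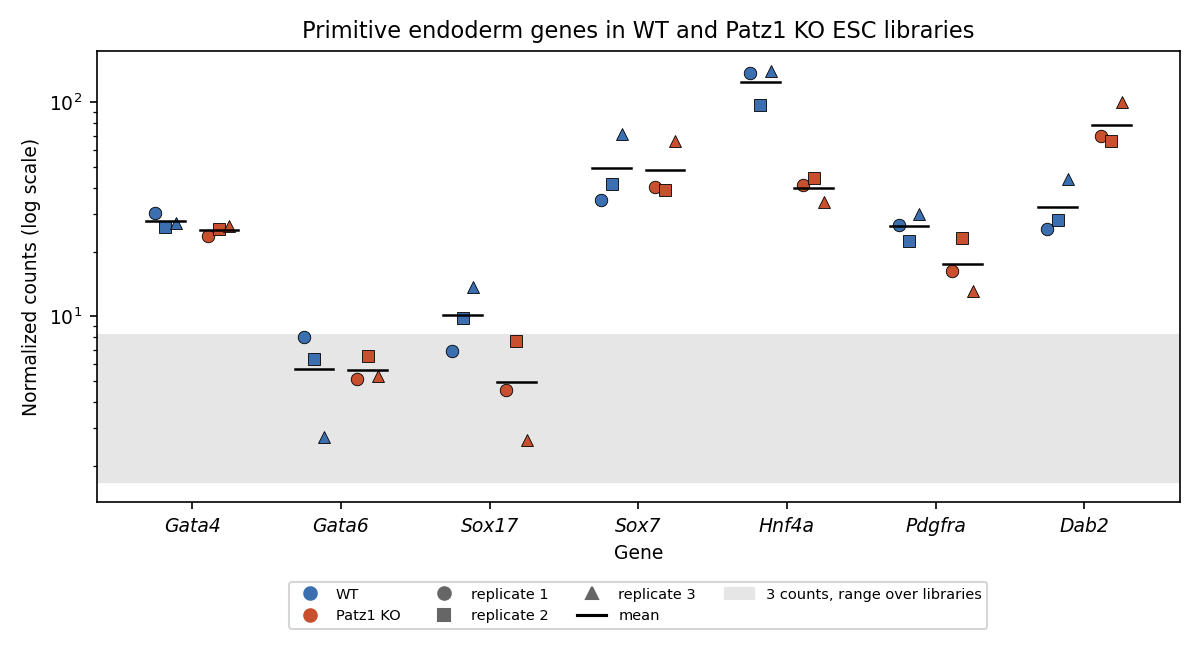
Normalized counts (log scale) of the 7 primitive endoderm genes, with 1 point per library, the shape giving the replicate, bars at the mean of 3 libraries, and a grey band for the range that 3 counts stand for across libraries. The KO libraries of *Hnf4a* (34.4 to 44.5) lie below all WT libraries, those of *Dab2* (65.8 to 100.4) lie above. *Gata6* lies within the band, whose upper edge is set by the replicate 3 libraries, and is above the floor of the library itself in 4 of 6 libraries.

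**Figure D2:**
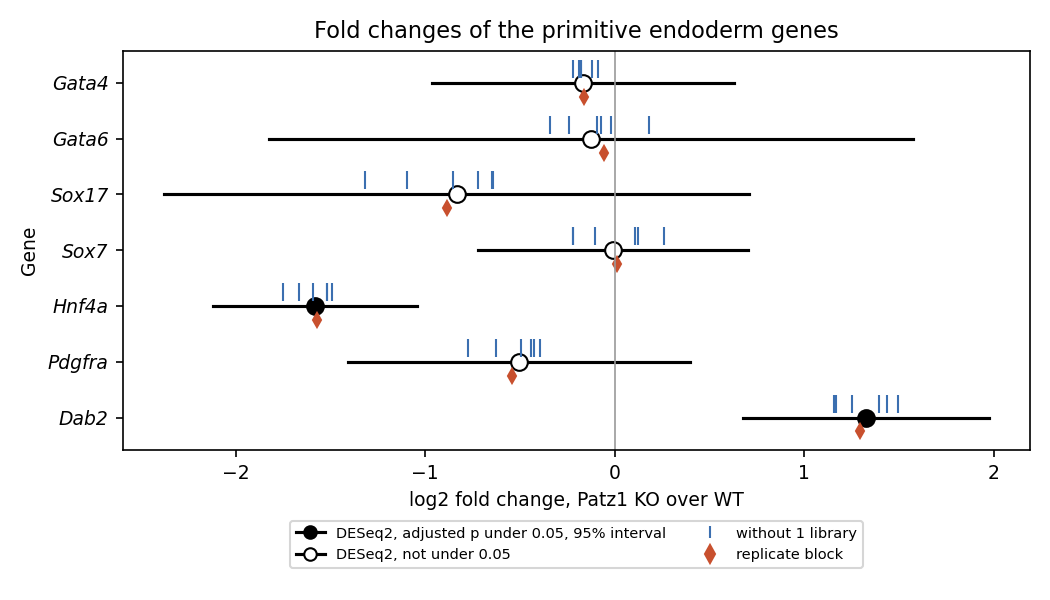
Log2 fold changes (KO over WT) of the 7 genes, with circles for the DESeq2 estimate, lines for its 95% interval, ticks for the 6 fits that each leave out 1 library, and diamonds for the fit with a replicate block. The intervals of *Hnf4a* (-2.12 to -1.05) and *Dab2* (0.68 to 1.97) do not reach 0, and those of the other 5 genes do.

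The opposite calls of *Hnf4a* and *Dab2* can also be given as a ratio, which restates them and is no further evidence. The ratio of *Hnf4a* to *Dab2* normalized counts, which does not depend on the size factors, was 5.33, 3.42 and 3.19 in WT and 0.589, 0.676 and 0.342 in KO. *Hnf4a* made up 45.0% of the summed mean level of the 7 genes in WT and 18.1% in KO, and *Dab2* made up 11.8% and 35.7%. The sum over the 7 genes was 269.9, 232 and 329 normalized counts in WT and 201, 212 and 248 in KO. The genotypes overlapped, since KO replicate 3 exceeded WT replicate 2, but within pairs of equal replicate number the sum was lower in KO in 3 of 3. Without *Hnf4a* and *Dab2*, the sum over the other 5 genes was 106.9, 106.6 and 145 in WT and 89.7, 102 and 114 in KO, again with overlap and again lower in KO in 3 of 3 pairs. No test was made of these sums. In bulk RNA, fewer cells of a type and less RNA per cell cannot be told apart.

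To compare the genes with each other, normalized counts were divided by exon length. In WT, *Hnf4a* led with 25.8 ± 4.99 normalized counts per kb (SD, n = 3), followed by *Sox7* with 14.9 ± 5.85, *Gata4* with 7.16 ± 0.550, *Dab2* with 4.44 ± 1.33, *Pdgfra* with 2.65 ± 0.376, *Sox17* with 2.13 ± 0.717 and *Gata6* with 0.876 ± 0.414. Neighbours overlapped in their libraries for *Hnf4a* with *Sox7* and for *Pdgfra* with *Sox17*. In KO the order was *Sox7* (14.7 ± 4.63), *Dab2* (10.7 ± 2.57), *Hnf4a* (8.29 ± 1.07), *Gata4* (6.46 ± 0.355), *Pdgfra* (1.75 ± 0.506), *Sox17* (1.04 ± 0.537) and *Gata6* (0.865 ± 0.120). There *Dab2* overlapped with both *Sox7* and *Hnf4a*, and *Sox17* with both *Pdgfra* and *Gata6*. With the longest transcript as the length, *Dab2* (16.9 per kb) stood above *Sox7* (14.7) in KO, and the order was otherwise the same. The levels themselves depend on the length used, since by this length *Gata6* had 1.51 and *Dab2* 6.99 per kb in WT, and *Dab2* then overlapped with *Gata4* there.

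These levels were low beside those of the ESC genes. *Pou5f1*, which codes for OCT4, stood at 14313 ± 819 normalized counts per kb in WT and at 15765 ± 394 in KO. *Nanog*, which opposes the endoderm choice, had 6386 ± 820 and 6445 ± 786, and *Sox2* had 3070 ± 588 and 3360 ± 354 (SD, n = 3 each).

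**Figure D3:**
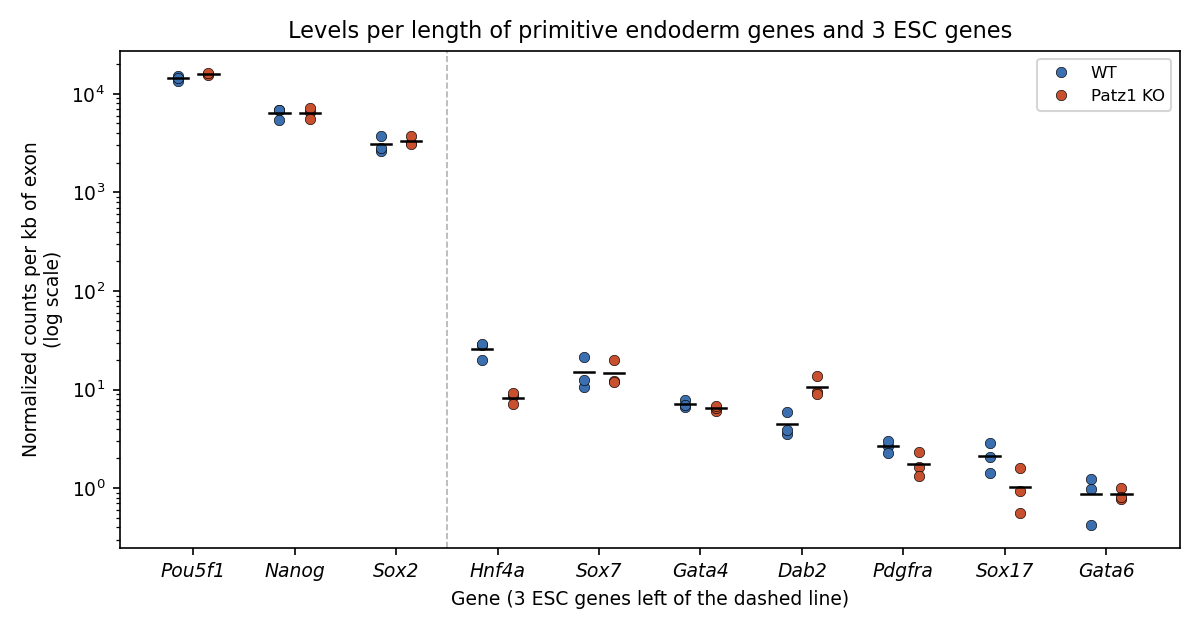
Normalized counts per kb of exon (log scale) for 3 ESC genes and the 7 primitive endoderm genes, with 1 point per library and bars at the mean of 3 libraries. The mean of *Pou5f1* lies at 14313 in WT and 15765 in KO, and the means of the endoderm genes lie between 0.865 and 25.8.

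Among the matrix and parietal endoderm genes, laminin and nidogen members moved both ways. Of the 11 genes, 4 (*Plat*, *Thbd*, *Srgn* and *Pth1r*) had a mean under 50 normalized counts, as did 5 of the 7 primitive endoderm genes. In this list 10 had an adjusted p-value, 1 rose and 2 fell, against 7.49% of all tested genes that passed. The median of their log2 fold changes was 0.05, against 0.01 over all genes tested. *Lamb1*, the laminin beta 1 chain, went up from 1284 ± 92.6 normalized counts to 2299 ± 32.1 (SD, n = 3 each). Its log2 fold change was 0.85 with an SE of 0.10 (DESeq2 adjusted p 1.26e-14), and it passed in all 13 alternatives. *Lamc1*, its gamma 1 partner, fell from 7745 ± 181 to 6462 ± 265 (log2 fold change -0.26, adjusted p 0.0361), and *Nid1*, which links laminin to collagen IV, from 2351 ± 142 to 1888 ± 28.3 (-0.32, adjusted p 0.0214). *Lamc1* passed in 7 of 13 alternatives and *Nid1* in 9. When WT replicate 1 or any single KO library was left out, *Lamb1* was the only call of this list. *Sparc*, a matrix protein of parietal endoderm, had 5498 ± 131 and 5700 ± 225 (adjusted p 0.875). *Srgn*, a proteoglycan core protein named here after its values were seen, had 11.4, 12.0 and 8.21 in WT and 2.26, 2.97 and 0 in KO, and it passed with edgeR (adjusted p 0.0360) and limma-voom (0.0199) but not with DESeq2 (0.117).

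The visceral endoderm genes ranged from undetected to well measured. *Ttr*, the transthyretin gene, had 0 counts in all 6 libraries, and *Afp*, the alpha-fetoprotein gene, had at most 3. Of the 12 visceral endoderm genes, 7 had an adjusted p-value and 0 passed with DESeq2 (7.49% of all tested genes did), with 2 at an unadjusted p under 0.05. With edgeR 0 passed (6.41% of all tested genes did), with 2 at an unadjusted p under 0.05. With so few genes, a count of 0 is near these shares. The median log2 fold change was -0.13. *Lrp2*, the gene of megalin, to which DAB2 binds, stood at 1769 ± 309 normalized counts in WT and at 1517 ± 271 in KO (log2 fold change -0.22, adjusted p 0.511, DESeq2). With the replicate block *Lrp2* passed (-0.22, adjusted p 0.0243). *Apob*, an apolipoprotein gene named after its values were seen, had 47.5, 42.4 and 57.5 normalized counts in WT against 19.2, 33.8 and 34.4 in KO. Each KO library lay below every WT library, but the difference did not pass (log2 fold change -0.77, unadjusted p 0.0394, DESeq2 adjusted p 0.250). *Cited1* had 164 ± 20.4 and 209 ± 23.2 (adjusted p 0.344), with each KO library above every WT library, and *Rbp4*, the retinol carrier, 45.3 ± 11.1 and 42.2 ± 4.74 (adjusted p 0.919).

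*Foxa2*, a pioneer factor gene of all endoderm, had 0 counts in each WT library and 22, 7 and 2 in KO replicates 1 to 3. It was singled out after its values were seen. Against a WT floor of 3 counts per library, the KO mean of 7.28 normalized counts was at least 1.81-fold higher, and KO replicate 3 was itself under the floor. Without KO replicate 1 the KO mean was 4.72 and the bound 1.17-fold (unadjusted p 0.0392, DESeq2). DESeq2 removed *Foxa2* by its filter on low means (unadjusted p 0.000860). Without that filter the adjusted p was 0.0204. The adjusted p was 0.157 without WT replicate 1 and 0.125 without WT replicate 2.

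Next, the FGF and ERK genes upstream of the fate were examined. *Fgfr2*, the receptor that primitive endoderm precursors raise, stood at 20.6, 38.1 and 38.3 normalized counts in WT and at 52.5, 87.2 and 81.9 in KO. Each KO library was above every WT library, and the log2 fold change of 1.23 (SE 0.36) passed with an adjusted p of 0.0131 (DESeq2). It passed in 8 of 13 alternatives. It was lost with edgeR (adjusted p 0.0551), with limma-voom (0.0513) and on leaving out WT replicate 1 (0.255), KO replicate 2 (0.251) or the KO library numbered 3 (0.0652). *Fgfr2* was the only one of the 14 genes of this list to pass, against 7.49% of all tested genes, and the median log2 fold change was 0.0010. With the replicate block 3 of the 14 genes passed, all higher in KO, in a fit where 14.6% of all tested genes passed. These were *Fgfr2* (adjusted p 0.00385), *Fgf4*, the ligand gene (3565 ± 194 to 4117 ± 259 normalized counts, adjusted p 0.00964 against 0.218 without the block), and *Dusp6*, a feedback phosphatase gene (0.000315 against 0.0974). *Etv5*, a target of ERK, had 10293 ± 224 and 11028 ± 409 normalized counts (adjusted p 0.662, DESeq2). All 6 samples were grown with the MEK inhibitor.

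The label of the cells was checked by the level of 8 ESC genes. Of these, 0 passed with DESeq2 (1 at an unadjusted p under 0.05) and 0 with edgeR (2 at an unadjusted p under 0.05), beside 7.49% and 6.41% of all tested genes. In 4 of the 8 each KO library lay above every WT library. Of all genes tested, 25.6% had KO libraries wholly above or wholly below WT. With so few genes, the count of 4 is not read as a result about the list. The summed level of the list was 115534 to 121277 in WT and 126092 to 131020 in KO. The part of this difference in summed level in the other results was not tested. *Pou5f1* (32176 ± 1842 and 35441 ± 885 normalized counts), *Zfp42* and *Tdgf1* were the highest, at 18160 or more in each genotype. With the replicate block these 3 of the 8 genes passed, in the fit where 14.6% of all tested genes did, with log2 fold changes of 0.14, 0.15 and 0.18 and adjusted p-values of 0.0405, 0.0298 and 0.00881.

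Markers of other cell types that can make these RNAs were then compared. *Sox17* and *Foxa2* also mark definitive endoderm, and of its 7 genes with those of the primitive streak, 5 had an adjusted p-value. None of them passed with DESeq2 or edgeR, with 0 at an unadjusted p under 0.05 by either tool, beside the same shares of 7.49% and 6.41% of all tested genes. Its highest members were *Eomes* (701 ± 98.6 and 615 ± 124 normalized counts), *T* (210 ± 69.4 and 199 ± 37.8) and *Cxcr4* (33.8 ± 11.9 and 37.2 ± 10.8). The summed level of the list was 877 to 1154 in WT and 725 to 1038 in KO.

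*Pdgfra* and *Dab2* are also expressed by fibroblasts. Of 7 fibroblast genes, *Col3a1*, *Dcn* and *Postn* had at most 3 counts in every library, and *Lum* at most 4. *Col1a1* (11.5 ± 3.71 and 9.16 ± 5.67 normalized counts) and *Col1a2* (10.8 ± 4.70 and 6.49 ± 1.32) did not pass. *Thy1*, a surface protein gene that is also expressed outside fibroblasts, rose from 72.5 ± 12.3 to 130 ± 22.7 (log2 fold change 0.83, adjusted p 0.0147, DESeq2), and passed in 7 of 13 alternatives, over which the log2 fold change lay between 0.67 and 0.94. It was the only call of the list, in which 3 of the 7 genes had an adjusted p-value (7.49% of all tested genes passed), and none was left without WT replicate 1 or 2, without KO replicate 1, 2 or 3, or without both replicate 3 libraries. The summed level of the list was 87.5 to 110 in WT and 134 to 169 in KO. *Thy1* carried this difference. The other 6 genes summed to 29.2, 30.4 and 16.4 in WT and to 19.2, 18.4 and 13.2 in KO, lower in KO in 3 of 3 pairs. In replicate 3 each of these 6 genes had at most 3 counts in either genotype, so the direction of that pair rests on few reads.

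Of 6 trophoblast genes, *Tfap2c* rose (log2 fold change 0.66, adjusted p 0.000919, DESeq2), and *Krt8* (-0.66, 2.77e-05) and *Cdx2* (-0.72, 0.0350) fell, beside 7.49% of all tested genes that passed. *Krt8* codes for a keratin that extraembryonic endoderm makes as well. *Krt18*, its partner, had 200 ± 53.6 and 215 ± 36.1 normalized counts (adjusted p 0.844). *Cdx2* passed in 6 of 13 alternatives, and in none of the 6 fits without 1 library. Without KO replicate 2, *Krt8* was the only call. The summed level was 1272 to 1375 in WT and 1149 to 1339 in KO. The part of other cell types in the changes of *Hnf4a* and *Dab2* was not tested.

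**Figure D4:**
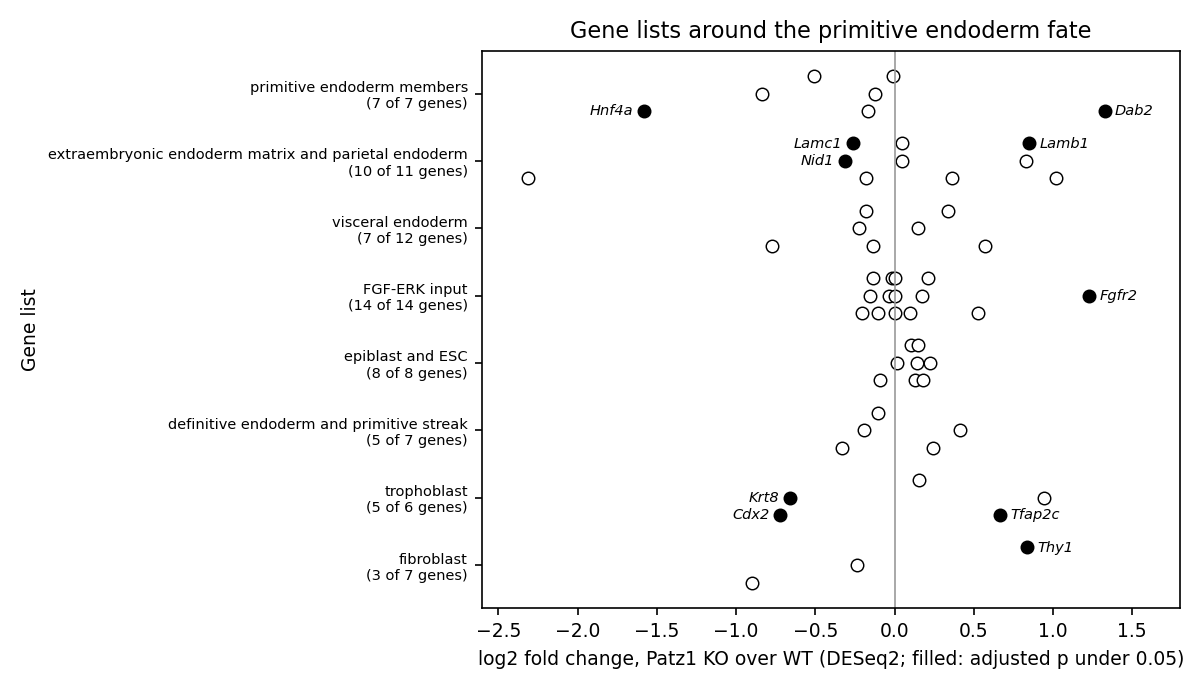
Log2 fold changes (KO over WT, DESeq2) of tested genes in the primitive endoderm group and 7 other lists, with 1 circle per gene, filled where the adjusted p was under 0.05, and the vertical offset within a list carrying no meaning. *Hnf4a* (-1.58) and *Dab2* (1.33) lie farthest from 0 among the filled circles.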

How the data were processed

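Per the labels, stranded TruSeq libraries were made after ribosomal depletion (the study's methods name KAPA kits instead), 3 for each of 2 genotypes, grouped by the sample titles. The authors mapped reads to mm10 and deposited raw counts per gene symbol, with 1 file per library. The submitters' processing notes name TopHat2 (2.1.1), Bowtie2, featureCounts (1.6.2) and DESeq2. The gene annotation and the use of strand in counting are not given in the sources used here, so values of overlapping or near-identical genes are uncertain.

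The Wald test of DESeq2 (1.42.0, two-sided, R 4.3.3) was fitted to all genes of the 6 libraries with genotype alone, median-of-ratios size factors and default independent filtering, with Benjamini-Hochberg adjustment over the 15309 genes that kept an adjusted p. The threshold was 0.05 and no p was adjusted over a list alone. Alternatives were edgeR (4.0.16), limma-voom (limma 3.58.1), TMM size factors, a filter of 10 counts in 3 libraries, no independent filtering, a replicate block, each library left out in turn, and both replicate 3 libraries left out. The code was checked on simulated counts, with changes placed only in genes with a mean of at least 50 scaled counts. That check does not cover lower genes, among them 5 of the 7 members. Lengths, positions and overlaps came from GENCODE M21 (GRCm38, the build of mm10), and promoters from RefSeq (GRCm38.p6).

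Replicate numbers in the titles paired the libraries. Deviations from the mean of the genotype were compared over 11524 genes with a mean of at least 50 normalized counts. A WT library and the KO library of its number deviated together (r 0.469, 0.619 and 0.684). Libraries of unlike number gave r from -0.542 to 0.138. The study's methods name no covariate, so the main fit used genotype alone, with the replicate block as an alternative. Members, gene lists and motifs were chosen with earlier results of these data known. The genes named are the 7 members, *Patz1*, list genes that passed, the 3 highest of each other list (1 of them is not reported here), and, for members with a mean of at least 50, the 3 genes most alike over the 6 libraries. *Nanog*, *Sox2*, *Srgn*, *Plat*, *Thbd*, *Pth1r*, *Apob*, *Foxa2*, *Ttr*, *Afp*, *Dusp6*, overlapping transcripts and markers at or near 0 are named beside this rule.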

Additional observations from a re-analysis of the deposited data

How the results depend on the processing

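*Hnf4a* kept its direction and its call in all 13 alternatives, and *Dab2* its direction in 13 and its call in 11. The log2 fold change of *Sox7* turned from -0.0066 to 0.036 with limma-voom, 0.010 with the replicate block, and 0.052 without both replicate 3 libraries. Without 1 library it ran from -0.22 to 0.26, and that of *Gata6* from -0.34 to 0.18, both uncalled. Without WT replicate 1 or 2, 1 of the 7 genes passed (range 1 to 2 over the fits without 1 library), and the log2 fold change of *Dab2* ran from 1.16 to 1.49. Over the transcriptome 1146 genes passed with DESeq2, 961 with edgeR, 2131 with the replicate block and 583 to 1341 without 1 library. FGF and ERK genes gave 0 calls with edgeR and with limma-voom (3 at an unadjusted p under 0.05 with edgeR), 3 with the block, and 0 to 1 without 1 library. Visceral endoderm genes gave 1 without independent filtering (*Foxa2*) and 1 with the block (*Lrp2*), and ESC genes 3 with the block. Without 1 library, matrix genes gave 1 to 3 calls, trophoblast genes 1 to 3 and fibroblast genes 0 to 1, and fibroblast genes gave 0 without both replicate 3 libraries. The replicate block changed no call of the 7 genes. The cause of these changes was not tested. TMM size factors moved the median log2 fold change of tested genes by 0.0029. Depth limits *Gata6* and *Sox17* most, with at most 14 reads in any library.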

Other observations

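The genes whose levels most resembled those of *Hnf4a* and *Dab2* were listed over the 6 libraries, by Pearson's r of log2(normalized count + 1) among 11523 other genes with a mean of at least 50. For *Hnf4a* these were *Pik3r3* (r 0.996), which codes for a regulatory subunit of phosphoinositide 3-kinase, *Fetub* (0.995), which codes for the secreted protein fetuin B, and *Afmid* (0.994), which codes for an enzyme of tryptophan breakdown. *Fetub* fell in KO, from 115 ± 31.6 to 24.8 ± 3.32 (normalized counts, SD, n = 3 each), with a log2 fold change of -2.16 and a DESeq2 adjusted p of 3.04e-09. *Pik3r3* fell from 766 ± 82.3 to 480 ± 32.1 (-0.66, adjusted p 4.36e-05). *Afmid* did not pass (-0.27, adjusted p 0.751).

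For *Dab2* they were *St6gal1* (r 0.996), a sialyltransferase gene, *Tdp1* (0.995), a DNA repair gene, and *Steap2* (0.995), a metalloreductase gene. *Steap2* rose in KO, from 686 ± 82.3 to 1008 ± 88.8 (normalized counts, SD, n = 3 each), with a log2 fold change of 0.56 and a DESeq2 adjusted p of 0.000449. *St6gal1* (0.67, adjusted p 0.0680) and *Tdp1* (0.20, adjusted p 0.334) did not pass. The 6 points share genotype, replicate number and depth, and 484 genes reached an r of at least 0.9 with *Hnf4a* and 468 with *Dab2*, so the likeness is a description alone.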
